A study of Mus musculus with 6 samples.

Results

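The drug-metabolising cytochromes P450 of families Cyp1, Cyp2 and Cyp3, together with their electron donor Por, were followed in mouse liver. Members were every gene whose symbol begins with Cyp1a, Cyp1b, Cyp2 and a letter, or Cyp3a, plus Por, with symbols taken through the RefSeq accession of each array probe. By this rule 58 of the 20659 genes with a named probe were members, 57 cytochromes in 17 subfamilies and Por. A RefSeq table held 88 such symbols, so 30 had no named probe and are not analysed here. Of these 30, 5 encode proteins (Cyp2a5, Cyp2c40, Cyp2c69, Cyp2j12 and Cyp3a41a) and the rest are listed as pseudogenes. Among the 57 with a named probe, Cyp2d13 and Cyp2d37-ps are listed as transcribed pseudogenes.

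RNA came from livers of male mice of the outbred ICR stock, weighing 18 to 22 g, and was hybridised to Agilent 1-colour arrays. The controls (CON) received normal saline and the treated mice DECB, a deproteinized extract of calf blood, each once a day for 35 days into the stomach, 0.08 mL for every 20 g of the mouse. The study had 24 mice, 12 in each group, and 3 arrays of each group were analysed, numbered control 1 to 3 and DECB 4 to 6 after the sample titles. The descriptions of the single samples speak instead of 1 day (controls) and 30 days (DECB), which the protocol's 35 days contradict. Mice of both groups were also timed in closed containers for tolerance of low oxygen, and the order of that test and the liver sampling is not stated in the labels. No label says that each array came from a separate mouse, so the p-values reflect the spread between arrays, part or all of which may be technical.

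Cytochromes P450 of the first 3 families are heme enzymes of the endoplasmic reticulum, most abundant in hepatocytes, that insert oxygen into drugs, toxins, steroids and fatty acids. Each reaction needs electrons from NADPH, which Por, the cytochrome P450 reductase, hands on, in some reactions helped by cytochrome b5. Transcription is set by sensors of foreign chemicals: Ahr drives Cyp1 genes, the constitutive androstane receptor Nr1i3 (CAR) drives Cyp2b and several Cyp2c genes, and the pregnane X receptor Nr1i2 (PXR) drives Cyp3a genes. Several mouse cytochromes also differ between the sexes under the control of growth hormone.

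Values are the log2 of an array's processed signal minus the log2 of that array's 75th percentile, here called the relative log2 signal, and a difference is the DECB mean minus the control mean on that scale. The 75th percentile itself lay between 78.8 and 551 signal units. Control 1 and DECB 6, scanned together and here called slide 1, were dim, with a 75th percentile 3.75 and 4.04 times the local background against 25.0 to 30.6 times on the other arrays. Controls 2 and 3 and DECB 4 shared slide 2, and DECB 5 was alone on slide 3; a slide is a set of arrays with the same scan date and time in the file headers. A gene entered the test when 3 or more of the 6 arrays had a probe of it well above background, which held for 53 members and 14805 genes in all, and 45 members had such a signal on all 6 arrays. Of 10 hepatocyte markers, all tested, 8 had a difference below 0 (median -0.13). Their summed linear signal (relative to the 75th percentile), in which the brightest genes weigh most, was 3000 to 3680 in controls and 2900 to 3650 in DECB.

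The promoters of members that return in the results are shown first, because the cytochromes that differed most include near-copies whose signals a probe may not separate. Each runs from 250 bases before to 50 bases after a transcript start, 5′ to 3′ on the gene's own strand, from RefSeq on GRCm38.p6; other annotated starts of a gene can lie elsewhere. Capitals mark 2 words on either strand, CAAAGT (on the other strand ACTTTG) and AGGTCA (on the other strand TGACCT), the second of which is the core recognised by many nuclear receptors. Cyp2b9 lies at chr7:26173159-26173458 (plus strand), Cyp2b13 at chr7:26061245-26061544 (plus) and Cyp2b10 at chr7:25897408-25897707 (plus). Cyp3a25 lies at chr5:146009569-146009868 (minus), Cyp3a57 at chr5:145345019-145345318 (plus) and Cyp2c70 at chr19:40187237-40187536 (minus).
Cyp2b9: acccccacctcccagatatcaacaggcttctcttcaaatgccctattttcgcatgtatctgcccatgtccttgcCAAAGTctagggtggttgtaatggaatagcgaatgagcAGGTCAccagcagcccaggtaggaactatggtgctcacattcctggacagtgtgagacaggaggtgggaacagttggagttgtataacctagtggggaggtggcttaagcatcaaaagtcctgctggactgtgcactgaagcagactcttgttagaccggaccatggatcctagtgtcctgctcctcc
Cyp2b13: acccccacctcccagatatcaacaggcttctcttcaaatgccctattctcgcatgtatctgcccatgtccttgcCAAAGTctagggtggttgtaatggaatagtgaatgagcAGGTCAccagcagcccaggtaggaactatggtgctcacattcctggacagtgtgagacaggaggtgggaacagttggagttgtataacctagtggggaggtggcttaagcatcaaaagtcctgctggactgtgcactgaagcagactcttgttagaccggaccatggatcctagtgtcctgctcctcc
Cyp2b10: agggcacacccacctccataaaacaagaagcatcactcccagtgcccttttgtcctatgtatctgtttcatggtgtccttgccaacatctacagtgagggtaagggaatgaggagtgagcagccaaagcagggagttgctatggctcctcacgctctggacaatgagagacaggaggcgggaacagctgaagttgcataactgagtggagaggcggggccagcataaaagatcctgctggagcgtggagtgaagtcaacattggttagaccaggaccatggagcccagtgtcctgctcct
Cyp3a25: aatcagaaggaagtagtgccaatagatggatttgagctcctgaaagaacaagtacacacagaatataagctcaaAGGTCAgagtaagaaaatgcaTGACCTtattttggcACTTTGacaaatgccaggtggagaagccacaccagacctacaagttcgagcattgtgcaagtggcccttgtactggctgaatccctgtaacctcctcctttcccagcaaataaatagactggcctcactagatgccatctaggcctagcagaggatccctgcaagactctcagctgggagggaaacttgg
Cyp3a57: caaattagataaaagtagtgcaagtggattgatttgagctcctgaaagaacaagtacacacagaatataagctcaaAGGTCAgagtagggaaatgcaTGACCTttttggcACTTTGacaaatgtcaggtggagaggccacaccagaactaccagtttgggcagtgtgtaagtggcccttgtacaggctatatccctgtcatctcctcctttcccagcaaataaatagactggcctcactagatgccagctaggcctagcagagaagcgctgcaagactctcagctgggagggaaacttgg
Cyp2c70: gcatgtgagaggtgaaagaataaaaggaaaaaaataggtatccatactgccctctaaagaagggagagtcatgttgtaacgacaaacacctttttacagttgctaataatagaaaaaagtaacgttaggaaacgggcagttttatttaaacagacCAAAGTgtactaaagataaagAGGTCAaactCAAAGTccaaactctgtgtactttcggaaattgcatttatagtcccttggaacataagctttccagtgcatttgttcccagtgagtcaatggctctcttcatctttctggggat

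In these windows Cyp2b9 and Cyp2b13 were identical at 298 of 300 bases (99.3%), while each matched Cyp2b10 at 76.1% of 289 aligned bases. Cyp3a25 and Cyp3a57 shared 90.9% of 298 aligned bases, with 1 ACTTTG, 1 AGGTCA and 1 TGACCT in each. Over the 45 tested members with a promoter in the RefSeq table, CAAAGT stood on either strand in 24 (53.3%), against 16.1% of the promoters of 27025 genes. AGGTCA stood in 16 (35.6%, against 18.1%) and the TATA word TATAAA in 23 (51.1%, against 15.7%). GCGTG, the core of the element bound by Ahr, stood in 8 (17.8%, against 35.2%). In the sequences shown no AGGTCA overlapped a CAAAGT. Near-copies among these promoters each count in the shares. Among the 13 of them whose gene was lower by 1 or more, CAAAGT stood in 8, AGGTCA in 6, TATAAA in 5 and GCGTG in 3. A match describes these letters only.

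Lower signals prevailed among the cytochromes in DECB livers, without any member passing the test over all genes. Of the 53 members tested 44 (83.0%) had a difference below 0, against 52.5% of all genes tested, and the median difference was -0.60 against -0.03. In 14 members (26.4%) the DECB mean was lower by 1 or more on the log2 scale, against 4.84% of all genes, and in 1 member, Cyp2c70, it was higher by that much. By limma with Benjamini-Hochberg adjustment over all genes, 0 members were called lower and 0 higher at an adjusted p of 0.05 (percent called over all genes 0.257 lower and 0.209 higher); the smallest adjusted p of a member was 0.0679. At an unadjusted p under 0.05 limma gave 18 members lower and 0 higher, where the background over all genes was 5.79% lower and 4.22% higher. The 3 DECB arrays lay wholly below the 3 control arrays in 24 members and wholly above them in 0, against 9.4% and 7.24% of the genes with a value on all 6 arrays.

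**Figure D1:**
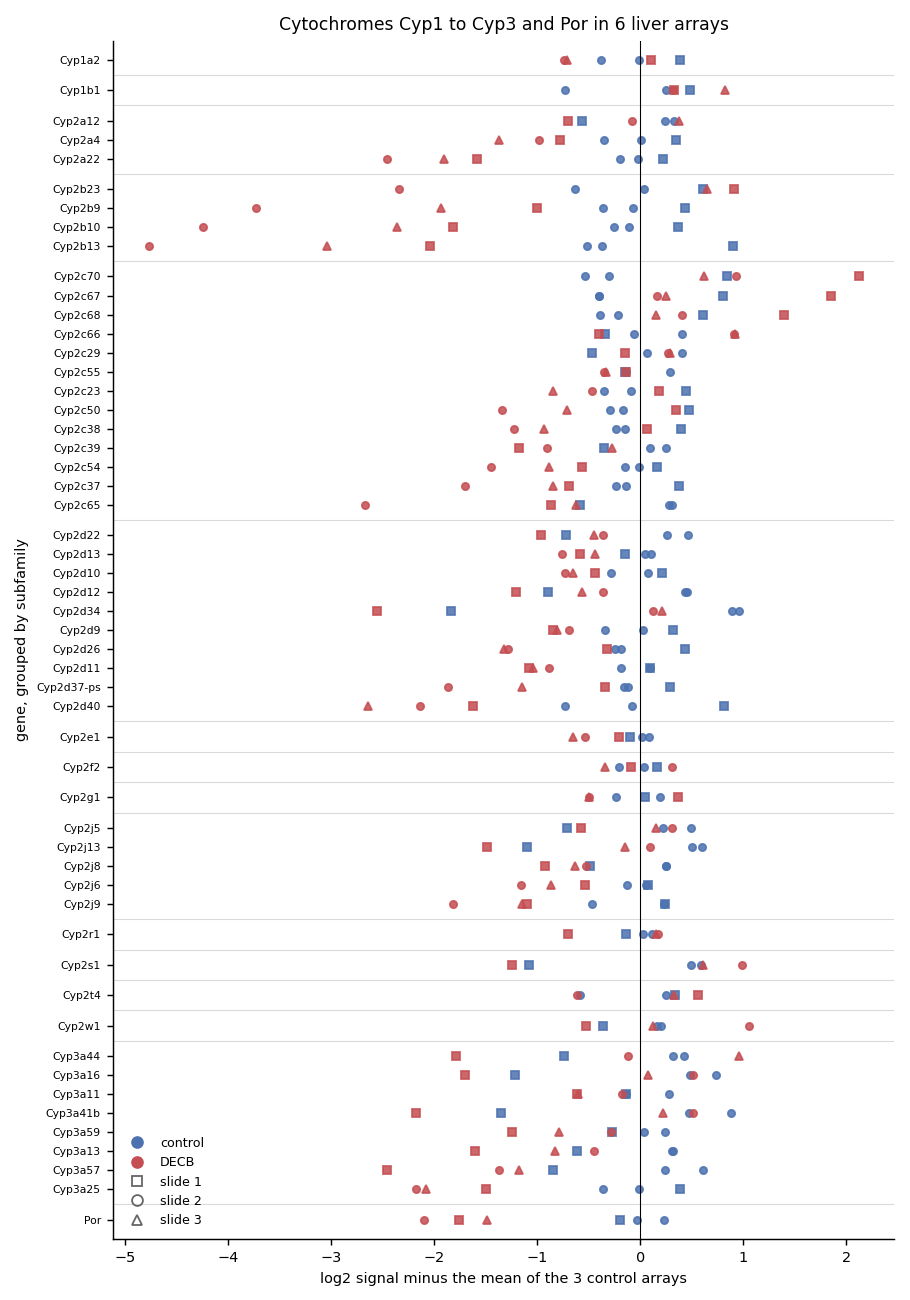
Relative log2 signal of each tested member on each of the 6 arrays, minus the mean of its 3 control arrays (horizontal axis, log2), by gene and subfamily (vertical axis). Blue marks control and red DECB, and squares, circles and triangles mark slides 1, 2 and 3; the red points lie left of the line for most members, farthest for Cyp2b13 and Cyp2b10, and right of it for Cyp2c70.

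Lower calls appeared under some other settings and with the slide in the model. With only genes well above background on all 6 arrays, limma called 3 members, Por, Cyp2a22 and Cyp3a25, lower (adjusted p 0.0394, 0.0394 and 0.0452), with 0.576% of all genes called lower. Scaling by the 75th percentile of probes well above background on all arrays called Cyp2a22 and Cyp3a25 lower (both adjusted p 0.0419; 0.412% of all genes), and the normexp background correction called Cyp3a25 lower (adjusted p 0.0363; 0.182% of all genes). With the slide as a block, 12 members fell and 1 rose by limma at an adjusted p under 0.05, where 3.94% of all genes were called lower and 2.74% higher. Those that fell were Por, Cyp2a22, Cyp2b10, Cyp2b13, Cyp2c37, Cyp2c39, Cyp2d26, Cyp2d40, Cyp2j9, Cyp3a13, Cyp3a25 and Cyp3a57, and Cyp2c70 rose. DECB 5, alone on its slide, adds nothing to that contrast, which rests on 5 arrays and 2 residual degrees of freedom. No fit that left out 1 array called a member by limma. At an unadjusted p under 0.05 such fits had 13 to 19 members lower and 0 or 1 higher. Over all 14805 genes the same fits had 853 to 2119 at that threshold, lower and higher together. Both the 19 members and the 2119 genes came from the fit without DECB 6.

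The 2 slides that hold both groups share no array, and each gives a difference of its own. On slide 1 (DECB 6 minus control 1) the members' median difference was -0.48, and on slide 2 (DECB 4 minus the mean of controls 2 and 3) it was -0.73. Both differences were below 0 in 38 members (71.7%), against 36.5% of all genes, both were above 0 in 4 (7.55%, against 28.5%), and 11 had opposite signs. Pearson's r between the 2 differences was 0.739 across the 53 members and 0.476 across all genes, a description over genes, which are not independent replicates.

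**Figure D2:**
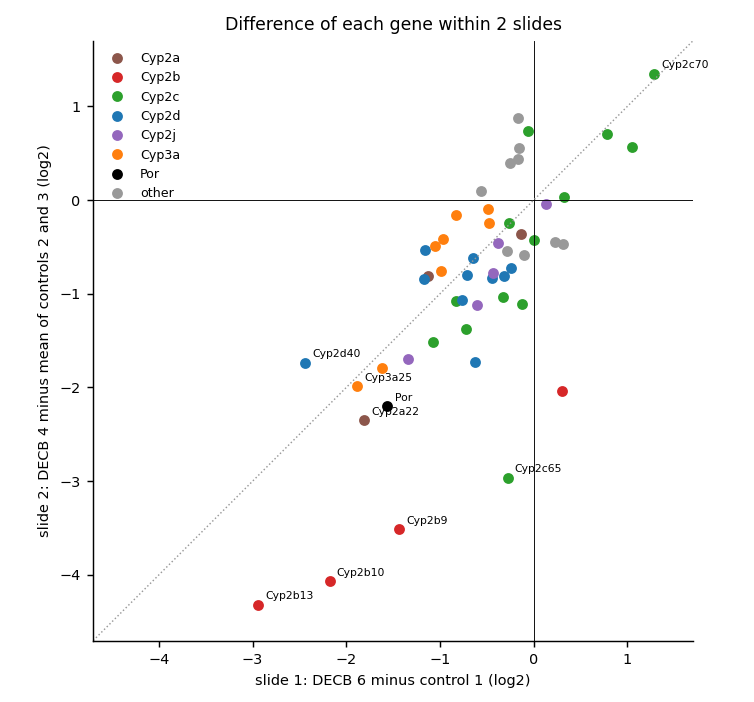
Difference of each tested member on slide 1 (horizontal axis, DECB 6 minus control 1, log2) and on slide 2 (vertical axis, DECB 4 minus the mean of controls 2 and 3, log2), coloured by subfamily; the dotted line marks equal values. Of the 53 points 38 lie below 0 on both axes, and Cyp2c70 stands apart at the upper right.

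Markers of hepatocyte zones and of other cells had differences below and above 0. Of the summed signals given here, only the periportal and red cell sums did not overlap between the groups. Over all genes tested, 52.5% had a difference below 0. All 10 periportal hepatocyte markers had a difference below 0 (median -0.39), with a summed signal of 469 to 592 in controls and 284 to 420 in DECB, and 9 of 10 pericentral markers did (median -0.34; 133 to 228 and 89.3 to 219). Of 7 red cell markers 6 were tested and 5 were below 0 (median -1.50). Their summed signal was 169 to 279 in controls and 36.5 to 104 in DECB. The red cell median was -1.79 on slide 1 and -0.22 on slide 2, and Epb42 was too dim to test. Only 4 of 8 neutrophil markers were tested, S100a8, S100a9, Camp and Elane, while Ly6g, Mpo, Ngp and Retnlg were not tested. All 4 were above 0 (median 1.08, sums 1.64 to 7.19 and 3.93 to 8.88), and 2 had opposite signs on slides 1 and 2. Of 9 cholangiocyte markers 7 were tested and 6 were above 0 (median 0.68, sums 16.3 to 24.5 and 17.6 to 46.2). Below 0 were 8 of 10 tested Kupffer cell and macrophage markers (median -0.23) and 7 of 10 endothelial markers (median -0.27). So were 7 of 9 tested stellate cell and fibroblast markers (median -0.38) and 3 of 7 tested lymphocyte and NK cell markers (median 0.01). Apart from Pnpla3, listed under adipocyte, no marker passed limma at an adjusted p of 0.05. With the slide as a block, S100a8 and S100a9 (neutrophil) and Pnpla3 rose, and Hal (periportal), Stab2 (endothelial) and Gzma (lymphocyte and NK cell) fell, with limma adjusted p from 0.0215 to 0.0463. That fit called 2.74% of all genes higher and 3.94% lower, so a few calls among many markers do not set the markers apart. The part of these cells in the cytochrome differences was not tested. In bulk liver RNA, fewer cells of a type and less RNA per cell cannot be told apart.

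Por encodes the reductase on which all microsomal cytochromes P450 depend. Its relative log2 signal was 7.28, 7.71 and 7.44 in controls 1, 2 and 3 and 5.37, 5.99 and 5.71 in DECB 4, 5 and 6. Every DECB array lay below every control array. The mean was 7.47 ± 0.22 (SD, n = 3) in controls and 5.69 ± 0.31 (SD, n = 3) in DECB, a difference of -1.78 (SE 0.30), or 3.44-fold lower, with a limma adjusted p of 0.0679. It was -1.56 on slide 1, -2.20 on slide 2 and -1.93 with the slide as a block (adjusted p 0.0254).

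The other electron carriers and membrane helpers of the P450 system had smaller differences than Por. Of 9 listed genes 8 were tested, 7 were below 0 and the median was -0.29, with 0 called by limma and 0 at an unadjusted p under 0.05. The cytochrome b5 reductase Cyb5r3 had -0.54 (SE 0.29), cytochrome b5 itself, Cyb5a, -0.43 (SE 0.33), and the outer mitochondrial form Cyb5b 0.41 (SE 0.27). The mitochondrial carriers Fdx1 and Fdxr had -0.44 (SE 0.25) and -0.35 (SE 0.37). The 3 DECB arrays of Cyb5b lay above all controls, and those of Cyb5r3 and Fdx1 below all controls. Cyb5r1 (-0.16) and the heme-binding membrane proteins Pgrmc1 (-0.21) and Pgrmc2 (-0.23) were near 0, and Pgrmc1 was 0.00 under quantile normalization. Cyb5r2 was too dim to test.

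**Figure D3:**
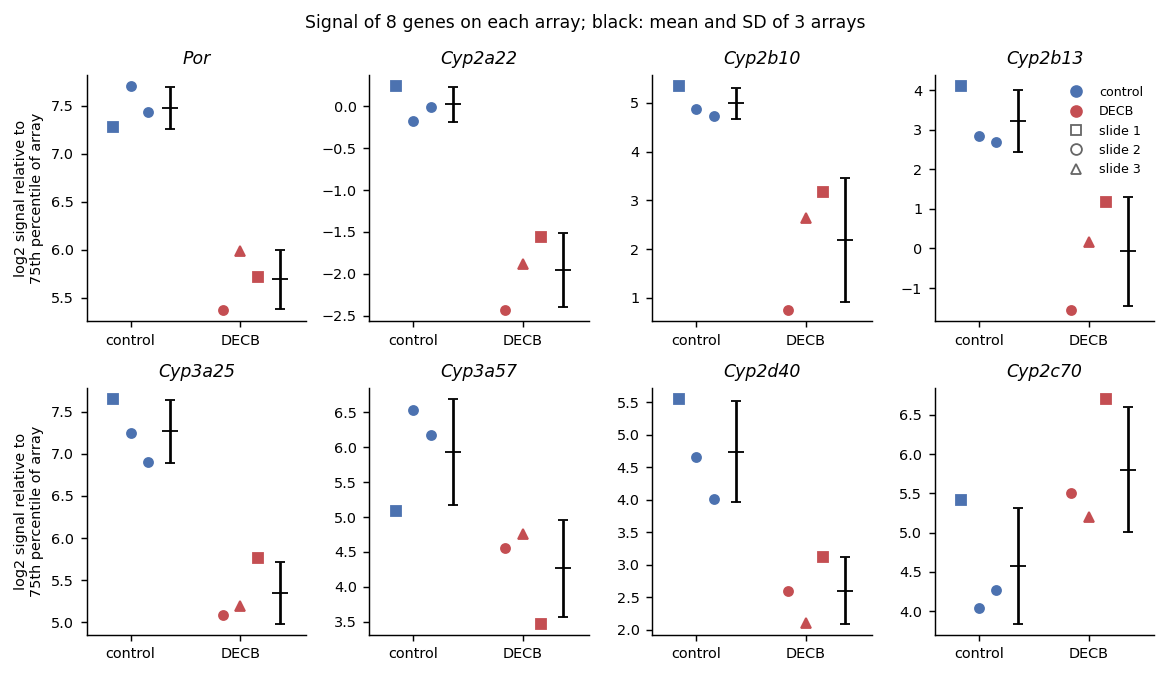
Relative log2 signal (vertical axis) of Por, Cyp2a22, Cyp2b10, Cyp2b13, Cyp3a25, Cyp3a57, Cyp2d40 and Cyp2c70 on each array, with the mean and SD of the 3 arrays of each group in black; squares, circles and triangles mark slides 1, 2 and 3, and each panel has its own scale. The groups do not overlap in the first 7 genes, and in Cyp2c70 control 1 lies among the DECB arrays.

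Cyp1 genes, the classic targets of Ahr, had small differences. Cyp1a2, which metabolises caffeine and arylamines, had 2.84, 2.07 and 2.44 in controls and 1.71, 1.74 and 2.56 in DECB (difference -0.45, SE 0.36). DECB 6 lay inside the control range. Cyp1b1, which hydroxylates oestradiol, was dim, with a difference of 0.49 (SE 0.39) over all arrays and -0.15 on slide 1. Cyp1a1, the strongest responder to Ahr ligands, was well above background on 0 control arrays and 1 DECB array and was not tested.

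Cyp2a genes were below 0 in 3 of 3 tested (median -1.04). Cyp2a22 had 0.25, -0.17 and 0.00 in controls and -2.44, -1.88 and -1.56 in DECB. Every DECB array lay below every control array, and the mean was 0.02 ± 0.21 (SD, n = 3) in controls and -1.96 ± 0.44 (SD, n = 3) in DECB. The difference was -1.98 (SE 0.33), or 3.96-fold lower (limma adjusted p 0.0679), and -1.32 with the normexp correction. Cyp2a4, a testosterone hydroxylase more abundant in females, had 7.06, 6.72 and 6.36 in controls and 5.73, 5.35 and 5.94 in DECB. Its groups did not overlap, with a difference of -1.04 (SE 0.32; limma adjusted p 0.295), and a further probe gave -0.74. Its promoter shares 98.3% of aligned bases with that of Cyp2a5, the coumarin hydroxylase without a named probe, and whether the Cyp2a4 probes also bind Cyp2a5 RNA was not tested. Cyp2a12, a steroid hydroxylase, had -0.14 (SE 0.40), and its value was 0.145 without DECB 6.

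Cyp2b genes had the lowest values of any subfamily with more than 1 tested member. All 4 tested were below 0, with a median of -2.51 over all arrays, -1.81 on slide 1 and -3.79 on slide 2. Cyp2b10, the standard read-out of CAR activity in mouse liver, had 5.35, 4.88 and 4.74 in controls and 0.74, 2.63 and 3.18 in DECB. All DECB arrays lay below the controls and DECB 4 lay far below the other DECB arrays. The difference was -2.81 (SE 0.62), or 7.0-fold lower (limma adjusted p 0.138), and -2.09 without DECB 4.

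Cyp2b13 and Cyp2b9, near-identical neighbours that are female-biased in liver, had the same order of the DECB arrays. That order also occurred in Cyp2b10, Cyp2b23 and members of other subfamilies, such as Cyp2c37 and Cyp2j9. Cyp2b13 had 4.11, 2.83 and 2.69 in controls and -1.56, 0.16 and 1.17 in DECB, a difference of -3.29 (SE 0.73), or 9.75-fold lower (limma adjusted p 0.139), and -2.54 without DECB 4. Cyp2b9 had 1.81, 1.02 and 1.30 in controls and -2.35, -0.56 and 0.37 in DECB, a difference of -2.22 (SE 0.67; limma adjusted p 0.288), which was -1.47 without DECB 4 and -1.59 with the normexp correction. In both genes the groups did not overlap, DECB 4 was lowest and DECB 6 was the highest of its group. Probe sequences are not used here, so how far a probe for 1 of these genes binds RNA of the other was not tested. Cyp2b23 had -0.26 (SE 0.86), with only DECB 4 below the controls. Cyp2b19, known from skin, was well above background on 0 control and 2 DECB arrays and was not tested.

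**Figure D4:**
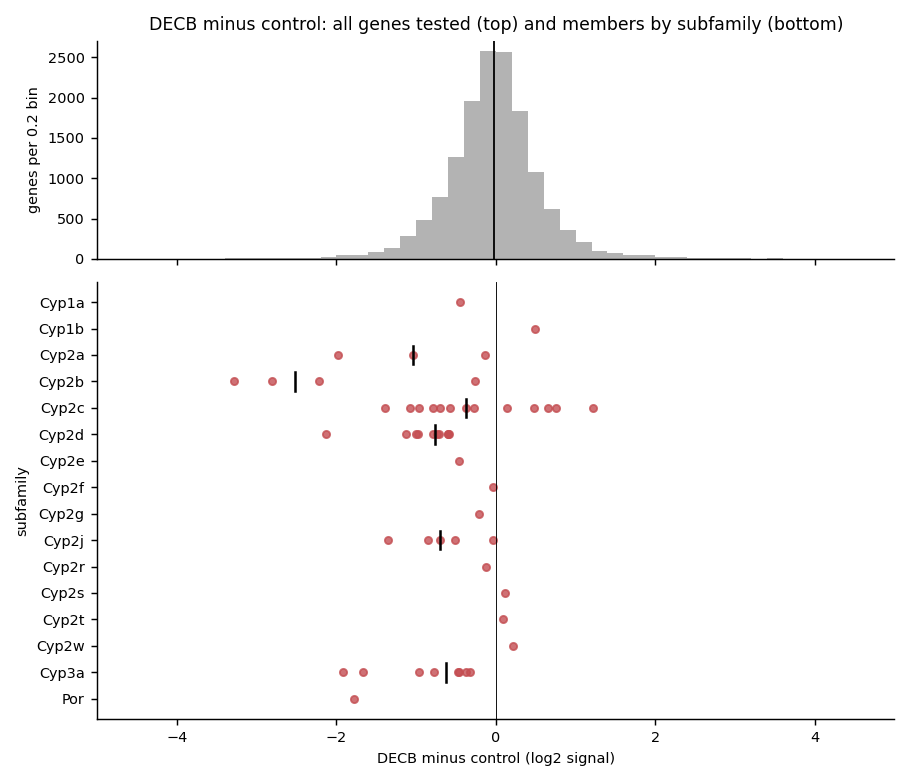
Difference between DECB and control (horizontal axis, log2) for all 14805 genes tested (top, number of genes per bin of 0.2) and for each tested member by subfamily (bottom, points), with vertical black ticks at the medians. Cyp2b, Cyp2a, Cyp2d, Cyp2j and Cyp3a lie to the left of 0 and Cyp2c lies on both sides.

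Cyp2c genes were mixed, with 8 of 13 below 0 and 5 above (median -0.38). Cyp2c37, inducible through CAR and PXR, had 5.37, 4.86 and 4.76 in controls and 3.29, 4.15 and 4.30 in DECB. All DECB arrays lay below the controls (difference -1.08, SE 0.37, limma adjusted p 0.372), though a further probe gave -0.38. Cyp2c54 had a difference of -0.97 (SE 0.32, limma adjusted p 0.353) by the brightest of its 3 probes, whose groups did not overlap. Its other probes gave -0.11 and -0.05, and the mean of its probes gave -0.38. Cyp2c23, an arachidonic acid epoxygenase that the RefSeq table also lists as Cyp2c44, had -0.38 (SE 0.38), and its groups overlapped.

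Cyp2c70, which makes the muricholic acids of mouse bile, stood highest of all members and was singled out after its values were seen. It had 5.42, 4.05 and 4.27 in controls and 5.51, 5.2 and 6.70 in DECB. DECB 5 lay below control 1, so the groups overlapped by that pair of arrays. The mean was 4.58 ± 0.74 (SD, n = 3) in controls and 5.8 ± 0.79 (SD, n = 3) in DECB, a difference of 1.22 (SE 0.53), or 2.33-fold higher (limma adjusted p 0.517). Within slides the difference was 1.28 and 1.35, and with the slide as a block Cyp2c70 rose by 1.32 (limma adjusted p 0.0288).

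Along chromosome 19 the Cyp2c differences had both signs, and whether like signs lie together was not tested. First in order, Cyp2c55 and Cyp2c65 were below 0 (-0.28 and -1.39) and Cyp2c66 and Cyp2c29 above it (0.47 and 0.14). Of these, Cyp2c55, Cyp2c65 and Cyp2c66 were dim. Next in the RefSeq order, Cyp2c39 and Cyp2c38 were below 0 (-0.79 and -0.70) and the genes after them, Cyp2c67 and Cyp2c68, above it (0.75 and 0.65). Beyond Cyp2c40 and Cyp2c69, which had no named probe, Cyp2c37, Cyp2c54 and Cyp2c50 were below 0 (-1.08, -0.97 and -0.57). Cyp2c70 was above it, and Cyp2c23, last in the order, below it (-0.38). Apart from Cyp2c23, Cyp2c37 and Cyp2c54, these genes were named after their values were seen. No Cyp2c gene passed limma without the slide, and cross-binding of their probes was not tested.

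Cyp2d genes were below 0 in 10 of 10 tested (median -0.76), on slide 1 and on slide 2 alike. Among these 10, Cyp2d13 (-0.60) and Cyp2d37-ps (-1.12) are listed as transcribed pseudogenes. Cyp2d40 had 5.55, 4.66 and 4.01 in controls and 2.60, 2.10 and 3.11 in DECB. The groups did not overlap, and the difference was -2.14 (SE 0.47), or 4.40-fold lower (limma adjusted p 0.136). Cyp2d11 had 7.20, 7.20 and 6.91 in controls and 6.21, 6.06 and 6.02 in DECB, which do not overlap either. Its difference was -1.0 (SE 0.26; limma adjusted p 0.203). Cyp2d26, the brightest Cyp2d probe, had -0.98 (SE 0.39; limma adjusted p 0.457), with all DECB arrays below the controls. Cyp2d9, the male-biased testosterone hydroxylase, had a difference of -0.78 (SE 0.29), also without overlap. The other members of the subfamily lay between -1.12 and -0.59.

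Cyp2j genes, many of them fatty acid epoxygenases, were below 0 in 5 of 5 tested (median -0.70). Cyp2j9 had 1.76, 1.75 and 1.05 in controls and -0.29, 0.38 and 0.43 in DECB. The groups did not overlap, and the difference was -1.35 (SE 0.35), or 2.56-fold lower (limma adjusted p 0.201). Cyp2j6 had 0.25, 0.05 and 0.23 in controls and -0.98, -0.69 and -0.36 in DECB. Its difference was -0.85 (SE 0.29; limma adjusted p 0.36), again without overlap, and -0.69 by a further probe. Cyp2j8 had -0.70 (SE 0.32), with every DECB array below the controls. Cyp2j5, abundant in kidney, had -0.04.

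The subfamilies Cyp2e, Cyp2f, Cyp2g, Cyp2r, Cyp2s, Cyp2t and Cyp2w each had a single tested cytochrome. Cyp2e1, the ethanol- and acetone-oxidising enzyme of pericentral hepatocytes, had 8.43, 8.61 and 8.55 in controls and 8.0, 7.88 and 8.33 in DECB. All DECB arrays lay below the controls, by a difference of -0.46 (SE 0.27; limma adjusted p 0.689). Cyp2f2, which activates naphthalene, had -0.04 (SE 0.30), and its sign turned under quantile normalization (0.06). Cyp2r1, which starts the activation of vitamin D, had -0.13 (SE 0.33), and the olfactory enzyme Cyp2g1 -0.21 (SE 0.34). Cyp2s1 had 0.11 (SE 0.70), Cyp2t4 0.09 (SE 0.43) and Cyp2w1 0.22 (SE 0.45). In all of these but Cyp2e1 the groups overlapped.

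Cyp3a genes, which carry out much of hepatic drug and steroid hydroxylation, were below 0 in 8 of 8 tested (median -0.63), on both slides. Cross-binding of the Cyp3a probes was not tested, so these 8 may not be separate readings. Cyp3a25 had 7.65, 7.25 and 6.90 in controls and 5.09, 5.19 and 5.77 in DECB. The groups did not overlap, and the mean was 7.27 ± 0.37 (SD, n = 3) in controls and 5.35 ± 0.36 (SD, n = 3) in DECB. The difference was -1.92 (SE 0.34), or 3.78-fold lower (limma adjusted p 0.0775). It was the member most often called under the other settings, those of background correction, scaling, filter and slide.

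Cyp3a57, whose promoter resembles that of Cyp3a25, had 5.09, 6.54 and 6.18 in controls and 4.56, 4.76 and 3.47 in DECB. Its groups did not overlap, with a difference of -1.67 (SE 0.51), or 3.18-fold lower (limma adjusted p 0.291). Cyp3a11, the main PXR target and the nearest mouse counterpart of the human drug-metabolising Cyp3a enzymes, had 8.52, 8.93 and 8.51 in controls and 8.47, 8.04 and 8.04 in DECB. All DECB arrays lay below the controls, DECB 4 narrowly, and the difference was -0.47 (SE 0.29; limma adjusted p 0.725).

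In some members the arrays of slide 1 lay apart from the others whatever their group. Both slide 1 arrays, control 1 and DECB 6, lay below the other 4 in 14 members (26.4%, against 23.6% of genes with a value on all arrays) and above them in 7 (13.2%, against 33.0%). The female-biased Cyp3a16, Cyp3a41b and Cyp3a44 were among the former. Cyp3a41b had 3.83 on control 1 and 3.0 on DECB 6, against 5.65 and 6.06 on controls 2 and 3 and 5.69 and 5.41 on DECB 4 and 5. Its difference of -0.48 (SE 0.86) is small beside that gap. Cyp2d34 had the same pattern (2.56 and 1.85 against 4.53 to 5.36). These 4 genes were named after their values were seen.

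Grouped by known control, cytochromes inducible through CAR or PXR were below 0 in 6 of 7 (median -0.96, from -2.81 for Cyp2b10 to 0.14 for Cyp2c29). Of 9 listed female-biased cytochromes, 6 were tested, and all 6 were below 0 (median -0.76). The groups did not overlap in 3 of them, Cyp2a4 and the near-copies Cyp2b9 and Cyp2b13. Among genes with a value on all arrays, DECB lay wholly below control in 9.4%. In Cyp3a16, Cyp3a41b and Cyp3a44 the groups overlapped, and both slide 1 arrays lay below all others. The male-biased Cyp2d9 had -0.78, and 83.0% of all tested members were below 0. Arachidonic acid epoxygenases were below 0 in 5 of 6 tested (median -0.74), with Cyp2c44 listed under its older name and so not counted. The 2 tested cytochromes inducible through Ahr had -0.45 and 0.49. By limma 0 of these were called without the slide, as for all members. Of 13 members with more than 1 kept probe, all probes had the same sign in 13, and in 4 they lay over 0.5 apart. In Cyp2j13 and Cyp2c54 the probe nearest 0 gave -0.003 and -0.05, where a shared sign says little.

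Among the sensors, Nr1i3 (CAR) had the lowest value. It had 4.71, 3.42 and 3.68 in controls and 1.44, 2.44 and 3.86 in DECB. DECB 6 lay inside the control range, and the difference was -1.35 (SE 0.65; limma adjusted p 0.582). It was -0.783 without DECB 4, -0.966 without control 1 and -1.99 without DECB 6, and -0.847 on slide 1 against -2.11 on slide 2. Nr1i2 (PXR) had -0.57 (SE 0.44), with 0.03 on slide 1. Ahr had -0.04 (SE 0.42) and turned sign under the normexp correction (0.04) and the scaling by probes well above background (0.03), and its partner Arnt had -0.13. Their chaperone Hsp90aa1, a heat-inducible member of the complex that holds Ahr and CAR in the cytosol, had 4.28, 4.23 and 4.34 in controls and 6.28, 5.56 and 5.54 in DECB. All DECB arrays lay above the controls, by 1.51 (SE 0.31; limma adjusted p 0.113), and with the slide as a block Hsp90aa1 rose by 1.68 (limma adjusted p 0.032).

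Liver transcription factors and other partners had values nearer 0. Hnf4a had -0.31 (SE 0.39), the glucocorticoid receptor Nr3c1 -0.25 (SE 0.43), Rxra, the partner of CAR and PXR, 0.03 (SE 0.27), and Foxa2 0.41 (SE 0.81). Over the 9 tested of 11 genes of this list the median was -0.13, with 0 called by limma and 1, Hsp90aa1, at an unadjusted p under 0.05; Ahrr and Onecut1 were too dim to test. Foxa2 was -0.50 on slide 2.

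Other targets of the same receptors, such as transporters and conjugating enzymes, mostly lay below 0 as well. Of 18 tested targets of CAR and PXR, 15 were below 0 (median -0.91), and this list includes Por. By limma 1 of them was called, Gadd45b, a stress-response gene induced through CAR. Gadd45b had 3.01, 2.76 and 2.10 in controls and 0.14, -0.45 and -0.29 in DECB, and fell by 2.83 (SE 0.35; limma adjusted p 0.0352) without overlap. The carboxylesterase Ces1g had -1.53 (SE 0.31; limma adjusted p 0.102). At an unadjusted p under 0.05 limma gave 7 of the 18 lower and 0 higher, against 5.79% and 4.22% of all genes. With the slide as a block, 6 of the 18 fell (limma, adjusted p under 0.05, against 3.94% of all genes called lower): Gadd45b, Por, Ces1g, Abcc2, Papss2 and Sult1d1, the last 3 named for these calls. In fits without control 1, control 3, DECB 4 or DECB 5, limma called no gene at all, Gadd45b included. Of 6 tested targets of Ahr other than cytochromes, 5 were below 0 (median -0.49), and the quinone reductase Nqo1 had -1.07 (SE 0.36; limma adjusted p 0.35) and the glucuronosyltransferases Ugt1a6b and Ugt1a6a -0.89 (SE 0.31) and -0.52 (SE 0.35). Some Ugt1a6 sequence is shared between these 2 genes, and their probes may bind both.

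Genes for the making and breakdown of heme, the prosthetic group of every cytochrome P450, lay on both sides of 0. Of 12 tested 6 were below 0 (median -0.08), with 0 called by limma and 0 at an unadjusted p under 0.05. The steps of synthesis with the smallest p were Ppox (0.65, SE 0.29) and Alad (0.61, SE 0.36) above 0, and Fech (-0.78, SE 0.41), which inserts the iron, below it. Alas1, the rate-limiting enzyme in liver and itself a target of CAR and PXR, had -0.60 (SE 0.38), and Hmox1, which breaks heme down, 0.32 (SE 0.34).

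**Figure D5:**
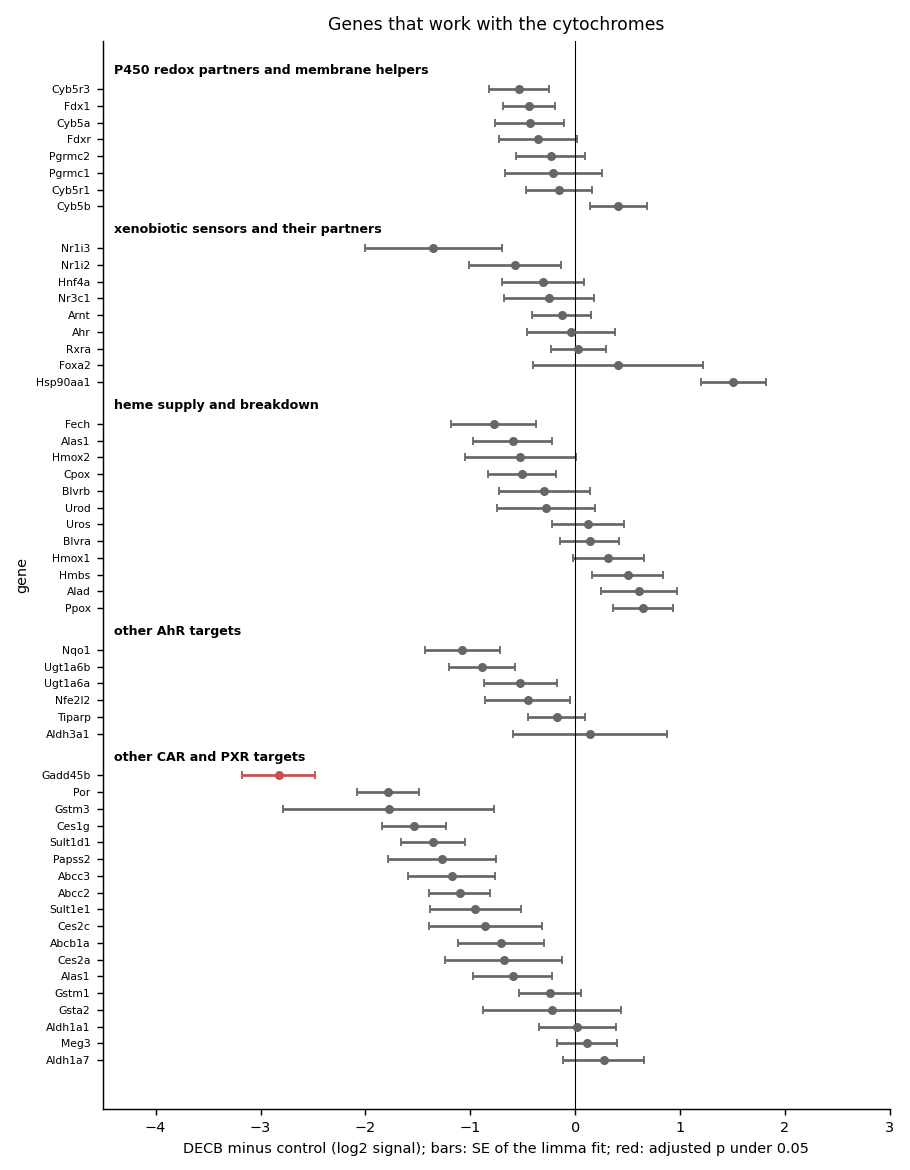
Difference between DECB and control (horizontal axis, log2; bars give the SE of the limma fit) for genes that work with the cytochromes, by list (vertical axis). Gadd45b, in red, is the only gene drawn with a limma adjusted p under 0.05, and Hsp90aa1 has the highest value.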

How the data were processed

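Each deposited file is 1 array's scanner output. The submitters' processing notes name Agilent Feature Extraction 11.0.1.1. Its processed Cy3 signal, an intensity that per the file headers is corrected for background and spatial trend but not scaled between arrays, was the measure used. The series' value table, deposited by the authors as log2 values, entered no comparison between groups.

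The processed signal was put on the log2 scale and the 75th percentile of the array, over 43020 non-control spots, was subtracted. Left out were 1377 control spots and 164 to 322 outlier spots per array; none was saturated. Spots of a probe were averaged. Between 14922 and 29490 of 39429 probes were well above background per array, and the number of arrays limits the precision. The filter kept 25418 probes, and a gene was represented by its brightest. For symbols, 27234 of the 28684 probes that carry a RefSeq accession were found in a RefSeq table of GRCm38.p6; 12195 probes had no symbol.

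Tests were two-sided, with lmFit and eBayes of limma 3.58.1 (R 4.3.3) and Benjamini-Hochberg adjustment over 14805 genes, and the script was tested on simulated data. Groups came from the sample titles. The members, lists and tests were chosen with earlier results of these data known. Named members are the 14 with the smallest p, the brightest of each subfamily, those alone in a subfamily, Por, and those detected on 2 or more arrays of only 1 group; others were named after their values were seen. Of other lists, the tested sensors and redox partners and up to 3 more genes per list are named, with Alas1, Hmox1 and cell type markers for their known roles; some listed genes are not reported here. Alternatives were another background correction, 2 other scalings, 2 other filters, the mean of probes, the slide as a block, left out or taken alone, each array left out, controls 2 and 3 averaged, and another prior for the spread.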

Additional observations from a re-analysis of the deposited data

How the results depend on the processing

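No paired analysis was possible because the titles number the controls 1 to 3 and the DECB samples 4 to 6, so the groups share no replicate number. The members' median difference stayed below 0 under all 18 alternatives, from -0.759 to -0.48. With 3 arrays a group, 2 of them dim, small differences were not detectable, and the cause of the changes listed here was not tested.

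Members called lower, 0 in the analysis reported, were 1 with normexp, 2 with the 75th percentile of probes well above background, 3 with the strict filter and 12 with the slide as a block, which called 1 higher. For all genes, called higher and lower in turn (31 and 38 in the analysis reported), quantile normalization gave 15 and 22, that 75th percentile 70 and 61, no filter 0 and 0, the slide as a block 405 and 583, and averaging controls 2 and 3 gave 0 and 2. Leaving out 1 array gave 0 to 18 higher and 0 to 35 lower. Without DECB 6 they were 18 and 35, without control 2 they were 0 and 2, and without any other array 0 and 0. Members with all DECB arrays above the controls, 0 in the analysis reported, numbered 3 with normexp, 1 each with quantile normalization, that 75th percentile, no filter and the mean of probes, 7 without slide 1 and 0 to 4 without 1 array. Members with all DECB arrays below the controls, 24 in the analysis reported, numbered 36 without slide 1 and 24 to 31 without 1 array. With fewer arrays groups part more easily, and the shares over all genes under these settings are not given here. The Cyp2b median was -3.79 on slide 2, and the Cyp2d median -0.956 to -0.72 without 1 array.

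Signs turned for some genes that had not been called. Within slide 1 these were Cyp1b1 (-0.154), Cyp2g1 (0.318), Cyp2s1 (-0.163), Cyp2w1 (-0.169), Nr1i2 (0.029), Pgrmc2 (0.01) and Rxra (-0.294). Within slide 2 they were Cyp2f2 (0.393), Cyp2r1 (0.099), Cyp2t4 (-0.442), Ahr (0.002) and Foxa2 (-0.504). Without slide 1 they were Cyp2f2 (0.067) and Cyp2r1 (0.09), and with the slide as a block Cyp2f2 (0.116), Cyp2t4 (-0.157) and Rxra (-0.051). Scaling turned Cyp2f2 (0.056 with quantile normalization, 0.029 with the 75th percentile of probes well above background), Ahr (0.028 with the latter, 0.035 with normexp) and Pgrmc1 (0.004 with quantile normalization). The mean of probes turned Arnt (0.011) and Rxra (-0.128), and averaging controls 2 and 3 turned Cyp2a12 (0.004) and Rxra (-0.002). Leaving out 1 array gave Cyp2a12 -0.421 to 0.145, Cyp2f2 -0.214 to 0.112, Cyp2r1 -0.277 to 0.16, Cyp2s1 -0.426 to 0.794, Cyp2t4 -0.2 to 0.442 and Cyp2w1 -0.202 to 0.589. The same gave Ahr -0.365 to 0.268, Cyb5r1 -0.291 to 0.041, Foxa2 -0.381 to 1.14, Nr3c1 -0.553 to 0.083, Pgrmc1 -0.58 to 0.151 and Rxra -0.048 to 0.126.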

Other observations

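The series' value table orders the cytochrome probes unlike the scanner signals. Of the 53 probes that stood for tested members, 31 lay in the top 10% of probes by mean scanner signal; 0 of these 31 lay in the top 10% of the value table and 25 lay below its median. The median percentile of the members was 94.2 by scanner signal and 32.6 in the value table. Por stood at percentile 99.0 and 87.9, Cyp2e1 at 99.8 and 59.2, and Cyp3a11 at 99.9 and 46.1. All 6 columns of the value table have the median 5.34 (log2), and each correlated with its own array at r = 0.742 to 0.774 across probes, but at -0.04 to 0.03 once each probe was centred on its mean. The scale of the table is log2, while its centring and the direction of its differences are unknown.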
